A study of Homo sapiens with 12 samples.

Results

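Selective autophagy receptors are the adaptor proteins that choose what autophagy delivers to the lysosome, and 10 genes of this class were described here: SQSTM1, NBR1, OPTN, CALCOCO2, TAX1BP1, TOLLIP, BNIP3, BNIP3L, FUNDC1 and the receptor kinase TBK1. They were chosen by name, with earlier results of these data known. They are the genes of the deposited count table whose Ensembl identifiers map to these symbols. All 10 were found, among 58735 genes in the table, and all 10 were among the 16133 genes with enough counts to be tested.

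In macroautophagy a double membrane grows around cytoplasm and closes into an autophagosome, which then fuses with the lysosome. A selective receptor holds a cargo with one part and, with a short LC3-interacting motif, the ATG8 proteins (the LC3 and GABARAP families) on the growing membrane with another. Soluble receptors such as p62, the SQSTM1 protein, recognise ubiquitin on aggregates, mitochondria or bacteria, whereas BNIP3, NIX (the BNIP3L protein) and FUNDC1 sit in the outer mitochondrial membrane and mark the organelle themselves. Pancreatic ductal adenocarcinoma is known for a high basal demand for autophagy and lysosomal breakdown.

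The 12 libraries came from 2 established human lines of that cancer, KP4 and MiaPaca2, each given for 48 h either DMSO, the solvent, or 100 nM trametinib, a drug that inhibits the kinases MEK1 and MEK2 of the RAS-MAPK pathway. The 4 groups, one for each line with each treatment, held 3 libraries each, all grown in the same serum-containing medium, and no other agent or genetic change is named in the labels. Polyadenylated RNA was sequenced, and the series concerns the adaptation of pancreatic cancer cells to inhibition of the RAS-MAPK pathway. Nothing in the labels tells if the 3 libraries of a group are separate cultures. A p-value here reflects only the spread among libraries of the same group, possibly a technical one. Unless a fit of fewer libraries is named, that spread was estimated jointly over all 12 libraries. A p-value for KP4 therefore also carries the spread of the MiaPaca2 libraries.

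Total counts ran from 20293688 to 28018129 per library, and levels are given as CPM, a gene's counts over its library's scaled total. The drug's action was visible in a list of 15 genes that RAS-MAPK signalling is known to drive: all 15 were lower with trametinib in KP4 and 14 of 15 in MiaPaca2, the exception being IER3, and the transcription factor gene ETV4 changed by -6.84 and -6.72 on the log2 scale. Ductal keratin and adhesion markers in KP4 summed to 372 to 383 CPM with DMSO and 237 to 246 with trametinib, and in MiaPaca2 to 1844 to 2218 and 853 to 862, with 8 of 10 genes tested and CFTR at 0 counts in every group. Of 7 acinar markers 6 were at 0 counts in every group, and immune and endothelial marker sums stayed at or under 6.89 CPM. One library stood apart: MiaPaca2 DMSO replicate 2 differed from replicates 1 and 3 by 14.5 and 13.3 times sampling noise (chi-square over its degrees of freedom), where replicates 1 and 3 differed by 7.70 and pairs within the other groups by 2.02 to 2.89. Among the 9 receptor genes that changed in MiaPaca2, that library was the DMSO library nearest to the trametinib mean for 7. The share over all genes is not given here, so that count is no result about the receptor genes. The responses of those 7 genes in MiaPaca2, and the line gaps with DMSO, are also given without that library.

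The promoters below show what sequence lies at the start sites of some of the receptor genes. RefSeq windows of 300 bases, from 250 before to 50 after an annotated start, were found for 9 of the 10 genes on GRCh38.p14, 15 windows in all, and were searched on both strands for 6 short motifs. The E-box CACGTG is read by basic helix-loop-helix factors such as the TFEB family, and TCACGTGA is the extended form that these factors prefer. NRF2, the oxidative stress factor, reads TGACNNNGC. Hypoxia-inducible factors read elements with the core ACGTG, which also lies inside every E-box. FOXO factors read GTAAACA, and the ETS factors at the end of RAS-MAPK signalling read CCGGAAGT. Capitals mark any match. The windows shown are SQSTM1 at chr5:179820655-179820954 (plus strand) and OPTN at chr10:13099832-13100131 (plus strand), for the most abundant gene and the one with the widest response; CALCOCO2 at chr17:48830785-48831084 (plus strand), which held matches to the NRF2, ACGTG and FOXO motifs; and BNIP3 at chr10:131981874-131982173 (minus strand) and TBK1 at chr12:64451870-64452169 (plus strand), which held the E-box.
SQSTM1: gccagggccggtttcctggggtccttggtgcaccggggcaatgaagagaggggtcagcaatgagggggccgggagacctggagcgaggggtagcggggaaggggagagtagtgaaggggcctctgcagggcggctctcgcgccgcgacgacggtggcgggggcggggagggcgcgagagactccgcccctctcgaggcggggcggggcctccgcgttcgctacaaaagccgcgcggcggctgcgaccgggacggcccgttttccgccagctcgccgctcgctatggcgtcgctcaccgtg
OPTN: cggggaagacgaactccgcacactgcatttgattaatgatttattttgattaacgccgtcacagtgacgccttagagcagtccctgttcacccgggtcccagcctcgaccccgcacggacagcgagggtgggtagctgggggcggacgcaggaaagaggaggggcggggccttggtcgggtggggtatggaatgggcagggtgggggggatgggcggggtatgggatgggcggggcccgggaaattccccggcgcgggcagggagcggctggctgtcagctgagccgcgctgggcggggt
CALCOCO2: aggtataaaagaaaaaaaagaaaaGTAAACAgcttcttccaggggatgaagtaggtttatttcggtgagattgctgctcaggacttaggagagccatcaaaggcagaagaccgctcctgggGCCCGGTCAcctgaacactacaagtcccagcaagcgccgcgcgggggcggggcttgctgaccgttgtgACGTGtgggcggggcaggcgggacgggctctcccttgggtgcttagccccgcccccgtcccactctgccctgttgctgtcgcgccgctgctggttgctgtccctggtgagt
BNIP3: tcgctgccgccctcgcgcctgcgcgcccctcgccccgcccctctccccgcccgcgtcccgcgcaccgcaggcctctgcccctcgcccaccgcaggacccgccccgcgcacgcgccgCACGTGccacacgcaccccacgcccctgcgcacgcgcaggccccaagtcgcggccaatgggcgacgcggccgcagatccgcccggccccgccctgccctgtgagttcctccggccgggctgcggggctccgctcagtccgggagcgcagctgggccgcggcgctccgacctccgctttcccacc
TBK1: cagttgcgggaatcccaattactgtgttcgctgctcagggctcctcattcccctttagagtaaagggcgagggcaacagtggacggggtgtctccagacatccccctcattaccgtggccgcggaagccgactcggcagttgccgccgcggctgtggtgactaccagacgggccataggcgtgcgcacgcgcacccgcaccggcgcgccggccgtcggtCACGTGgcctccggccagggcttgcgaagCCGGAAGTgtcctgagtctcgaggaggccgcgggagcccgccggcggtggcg
The CACGTG of BNIP3 began 134 bases before the start and that of TBK1 31 bases before it; TBK1 also held CCGGAAGT from 2 bases before the start. CALCOCO2 held GTAAACA from 226, TGACNNNGC on the minus strand (capitals printed as its reverse complement) from 129 and ACGTG from 61 bases before the start, and a TOLLIP window on chromosome 11 held TGACNNNGC from 195 bases before it. No window of SQSTM1 (3 windows), OPTN (2), NBR1 (2), TAX1BP1 (2) or FUNDC1 (1) held any of the 6 motifs, and TCACGTGA was in none of the 15. Among all 35116 windows of the table, CACGTG was in 7.26%, TCACGTGA in 0.980%, TGACNNNGC in 13.3%, ACGTG in 21.4%, GTAAACA in 3.42% and CCGGAAGT in 4.14%. These matches are letters only, and binding was not measured.

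Trametinib raised 5 of the 10 receptor genes in KP4 and lowered 0, and it raised 8 and lowered 1 in MiaPaca2 (edgeR quasi-likelihood test, Benjamini-Hochberg adjusted p under 0.05 over all 16133 genes). OPTN moved most in each line, 2.36-fold in KP4 and 5.76-fold in MiaPaca2. In KP4, 23.9% of all genes tested were higher and 24.1% lower, and in MiaPaca2 34.4% were higher and 29.7% lower. The median log2 change of the 10 genes was 0.15 in KP4 and 0.79 in MiaPaca2, beside 0.00 and 0.05 over all genes tested. The 5 that rose in KP4, namely SQSTM1, OPTN, CALCOCO2, TAX1BP1 and TOLLIP, are all soluble, ubiquitin-binding receptors, and NBR1, the sixth of that kind, passed in neither line. The TOLLIP rise in KP4 was small (0.17 log2), and its call is lost when some single libraries are left out. The count of 0 lowered in KP4 was also 0 at an unadjusted p under 0.05, by DESeq2 and by limma. The mitochondrial receptors and TBK1 changed in MiaPaca2 and did not pass the test in KP4. In bulk RNA, fewer cells that express a gene and less of its RNA per cell cannot be told apart.

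**Figure D1:**
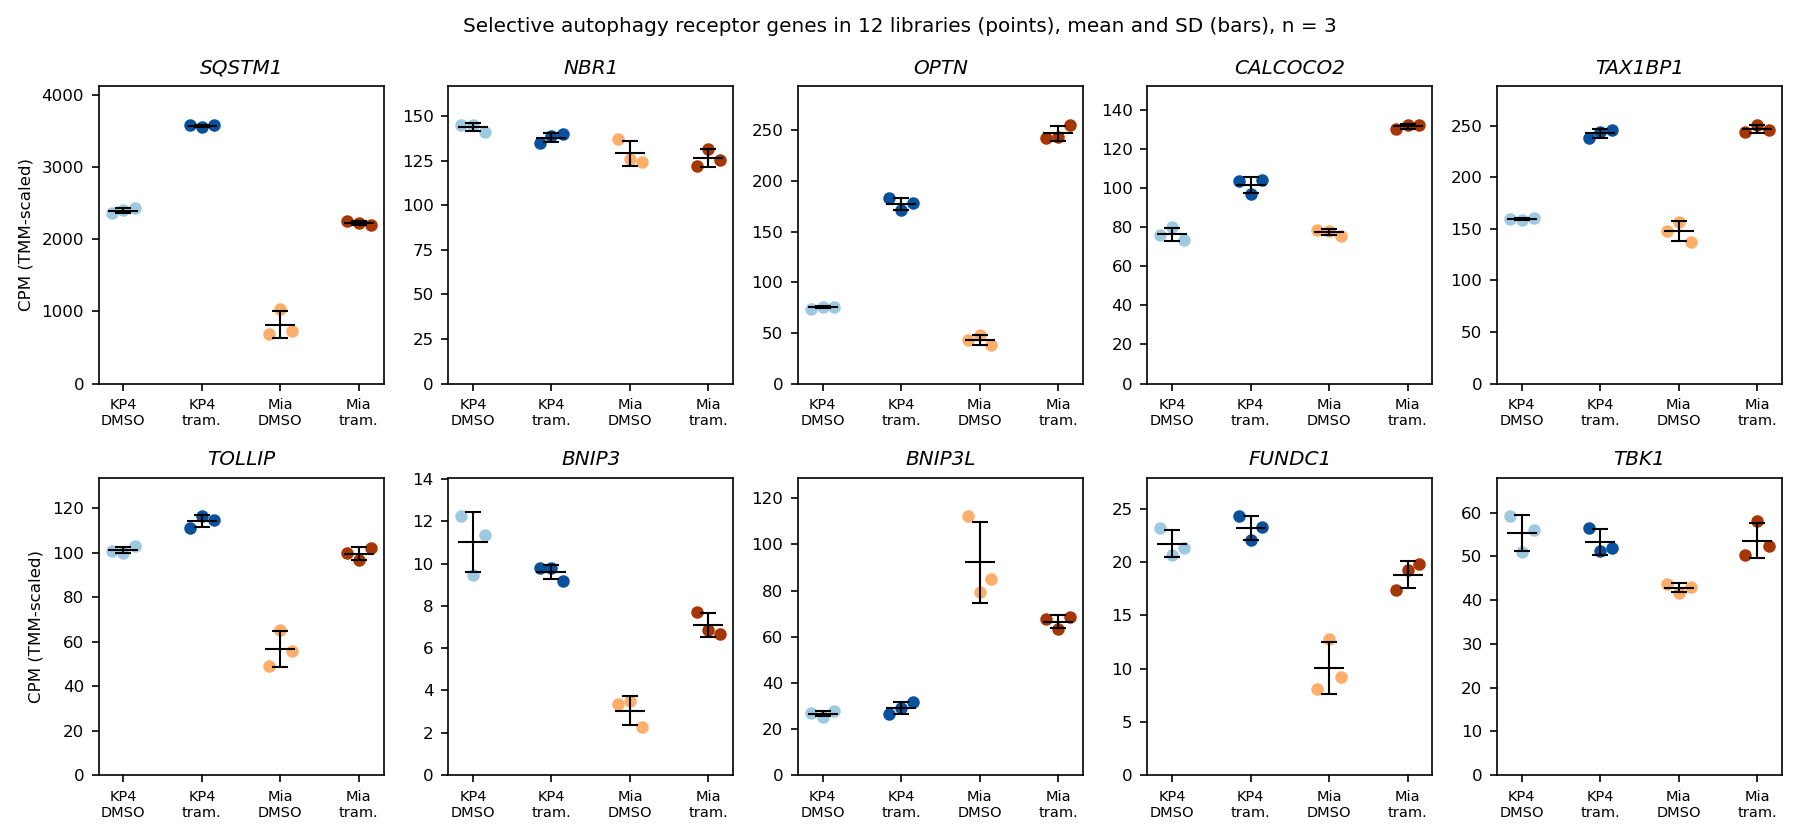
Level of each of the 10 receptor genes in CPM (vertical axes from 0, library sizes scaled by TMM) in the 12 libraries. Points are libraries, horizontal marks and bars are the mean and SD of 3 libraries, and tram. stands for trametinib. The trametinib libraries sit above the DMSO libraries of the same line for SQSTM1, OPTN, CALCOCO2, TAX1BP1 and TOLLIP in both lines, while BNIP3L in MiaPaca2 sits lower with trametinib.

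SQSTM1 encodes p62, which gathers ubiquitinated proteins into condensates and also binds KEAP1, the inhibitor of the oxidative stress factor NRF2. The gene lies on chromosome 5 at 179806398 to 179838078 of GRCh38, on the plus strand. Its level was 2359.8, 2399.9 and 2434 CPM in the KP4 DMSO libraries and 3579, 3558 and 3586 CPM in the KP4 trametinib libraries. In MiaPaca2 it was 686, 1036 and 731 CPM with DMSO and 2257, 2229 and 2192 CPM with trametinib. The groups did not overlap within either line, and the 3 MiaPaca2 DMSO libraries were the lowest of the 12, with replicate 2 well above the other two. The change was 0.58 ± 0.13 on the log2 scale (SE; edgeR adjusted p = 0.00538) in KP4 and 1.44 ± 0.13 (adjusted p = 1.01e-05) in MiaPaca2. Without MiaPaca2 DMSO replicate 2 the MiaPaca2 value was 1.65. Trametinib brought MiaPaca2 to 2226 ± 32.2 CPM (SD, n = 3), just under the 3 KP4 DMSO libraries at 2398 ± 36.9 CPM. SQSTM1 shares 1582 exon bases with MRNIP and 105 with MGAT4B on the opposite strand, which held 9284 and 102375 counts in all beside 694995 for SQSTM1.

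NBR1, on chromosome 17 (43170481 to 43211689, plus strand), encodes a p62-like receptor that binds ubiquitin and p62 itself. Its levels in KP4 were 145, 145 and 141 CPM with DMSO and 135, 139 and 140.0 CPM with trametinib. In MiaPaca2 they were 137, 126 and 124 CPM with DMSO and 122, 132 and 126 CPM with trametinib. It moved little in either line. The log2 changes were -0.06 (95% interval -0.15 to 0.03) in KP4 and -0.03 (-0.13 to 0.06) in MiaPaca2, with edgeR adjusted p = 0.301 and 0.566. In KP4 the 3 trametinib libraries lay just below the 3 DMSO libraries, without overlap.

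OPTN encodes optineurin, a ubiquitin receptor for mitochondria and bacteria whose hold on LC3 strengthens when TBK1 phosphorylates it. It lies on chromosome 10 at 13099449 to 13138308, plus strand. The KP4 libraries read 73.9, 75.9 and 75.7 CPM with DMSO and 183, 171 and 178 CPM with trametinib. The MiaPaca2 libraries read 42.7, 47.9 and 38.1 CPM with DMSO and 242, 244 and 255 CPM with trametinib. Every trametinib library exceeded every DMSO library of either line. The log2 change was 1.24 ± 0.05 (edgeR adjusted p = 2.92e-16) in KP4 and 2.53 ± 0.06 (adjusted p = 8.54e-23) in MiaPaca2, and 2.61 in MiaPaca2 without DMSO replicate 2.

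CALCOCO2 encodes NDP52, a ubiquitin and galectin-8 receptor that recruits the ULK1 kinase complex to cargo. It lies on chromosome 17 at 48830988 to 48866522, plus strand. Levels were 75.7, 79.9 and 73.2 CPM in KP4 DMSO and 104, 96.9 and 104 CPM in KP4 trametinib. They were 78.5, 78.1 and 75.5 CPM in MiaPaca2 DMSO and 130.0, 132 and 132 CPM in MiaPaca2 trametinib. The DMSO libraries of the 2 lines interleaved, and the trametinib libraries of MiaPaca2 all lay above those of KP4. The log2 changes were 0.41 ± 0.05 (edgeR adjusted p = 5.71e-08) in KP4 and 0.76 ± 0.05 (adjusted p = 2.13e-13) in MiaPaca2.

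TAX1BP1, a paralog of NDP52 on chromosome 7 (27739331 to 27844564, plus strand), brings the autophagy scaffold FIP200 to aggregates and is known to work with NCOA4 in the lysosomal delivery of ferritin. The KP4 libraries were at 159, 159 and 161 CPM with DMSO and at 238, 244 and 246 CPM with trametinib. The MiaPaca2 libraries were at 148, 157 and 137 CPM with DMSO and at 244, 251 and 246 CPM with trametinib. The 2 lines ended at nearly the same level, 243 ± 4.06 and 247 ± 3.64 CPM (SD, n = 3). The log2 changes were 0.60 ± 0.04 (edgeR adjusted p = 6.64e-12) in KP4 and 0.74 ± 0.04 (adjusted p = 5.18e-14) in MiaPaca2, or 0.78 there without DMSO replicate 2.

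TOLLIP, an adaptor of Toll-like receptor signalling with a ubiquitin-binding CUE domain, lies on chromosome 11 at 1274371 to 1309654, minus strand. Its levels were 101, 100.0 and 103 CPM in KP4 DMSO and 111, 116 and 115 CPM in KP4 trametinib. In MiaPaca2 they were 49.0, 65.3 and 55.9 CPM with DMSO and 99.7, 96.7 and 102 CPM with trametinib. The groups did not overlap within either line, though the step in KP4 was small. The log2 change was 0.17 ± 0.06 (edgeR adjusted p = 0.0217) in KP4 and 0.81 ± 0.07 (adjusted p = 1.65e-10) in MiaPaca2, or 0.93 there without DMSO replicate 2. The KP4 call is lost when any of 4 libraries is left out, at adjusted p = 0.0638 and 0.0729 for DMSO replicates 1 and 2, and 0.0765 and 0.0624 for trametinib replicates 2 and 3. Those fits still share the spread of the MiaPaca2 libraries. With the KP4 libraries fitted alone, the KP4 value was 0.18 (edgeR adjusted p = 1.16e-06).

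**Figure D2:**
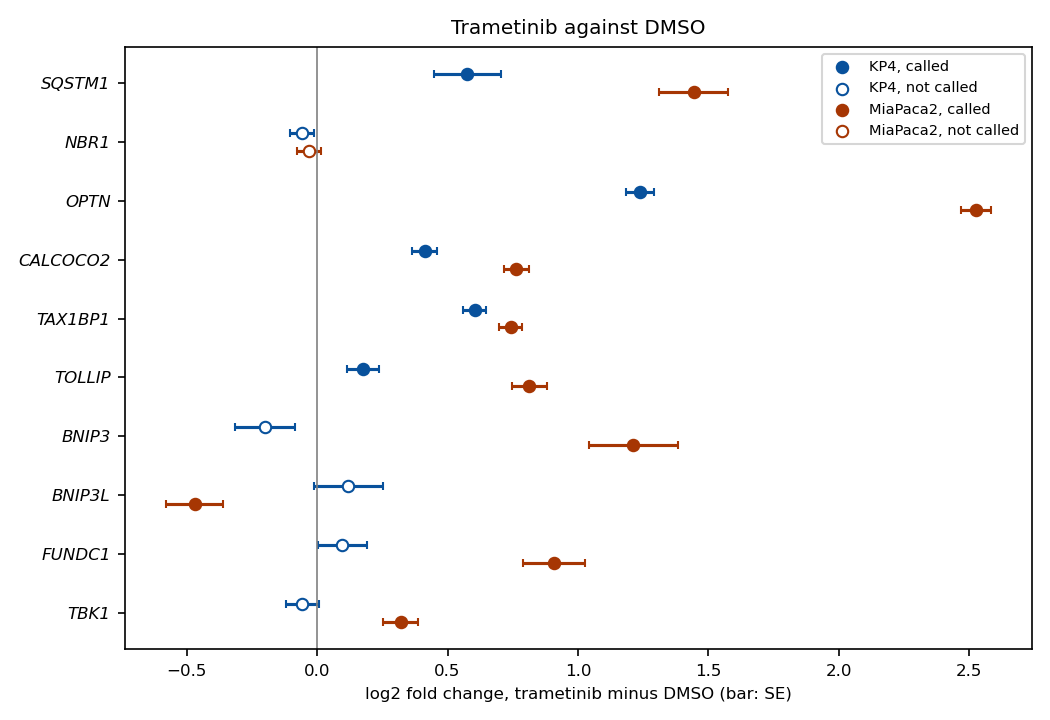
Log2 fold change of each receptor gene, trametinib minus DMSO, in KP4 (blue) and MiaPaca2 (brown), with bars for the SE. Filled points passed the test at an adjusted p under 0.05 and open points did not; OPTN lies farthest right in both lines, and BNIP3L in MiaPaca2 is the called point left of 0.

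BNIP3 encodes a mitochondrial outer membrane receptor that hypoxia is known to induce. It lies on chromosome 10 at 131966455 to 131982013, minus strand, and was the least abundant of the 10 genes. KP4 read 12.2, 9.48 and 11.3 CPM with DMSO and 9.80, 9.79 and 9.20 CPM with trametinib, and those groups overlapped. MiaPaca2 read 3.38, 3.49 and 2.26 CPM with DMSO and 7.72, 6.86 and 6.65 CPM with trametinib, with no overlap. The log2 change was -0.20 (95% interval -0.43 to 0.04, edgeR adjusted p = 0.159) in KP4 and 1.21 ± 0.17 (adjusted p = 8.00e-07) in MiaPaca2, or 1.31 there without DMSO replicate 2. The annotation lists 39 BNIP3 pseudogenes, which held 28 counts in all beside 2366 for BNIP3, and how reads shared with them were counted is not given in the sources used here.

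BNIP3L encodes NIX, the paralog of BNIP3 that clears mitochondria from maturing red blood cells, and lies on chromosome 8. It ran against the other members: the only one called lower with trametinib, and the only one called lower in KP4 than in MiaPaca2 with DMSO. Its levels were 27.1, 25.3 and 27.7 CPM in KP4 DMSO and 26.5, 29.0 and 31.6 CPM in KP4 trametinib. In MiaPaca2 they were 112, 79.3 and 85.0 CPM with DMSO and 67.9, 63.2 and 68.5 CPM with trametinib. The KP4 groups overlapped and the MiaPaca2 groups did not, with DMSO replicate 1 far above the other two. The log2 change was 0.12 (95% interval -0.17 to 0.41, edgeR adjusted p = 0.503) in KP4. In MiaPaca2 it was -0.47 ± 0.11 (adjusted p = 0.00188), -0.30 without DMSO replicate 1 (adjusted p = 1.09e-04) and -0.57 without DMSO replicate 2. BNIP3L shares 330 exon bases with PNMA2 on the opposite strand, which held 4800 counts beside 15623 for BNIP3L.

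FUNDC1 encodes the third mitochondrial receptor, controlled by phosphorylation of its LC3-interacting motif, and lies on chromosome X at 44523639 to 44543001, minus strand. KP4 libraries held 23.2, 20.7 and 21.4 CPM with DMSO and 24.3, 22.1 and 23.3 CPM with trametinib. MiaPaca2 libraries held 8.08, 12.8 and 9.22 CPM with DMSO and 17.4, 19.3 and 19.8 CPM with trametinib. The KP4 groups overlapped, and in MiaPaca2 all 3 trametinib libraries were above all 3 DMSO libraries. The log2 change was 0.10 (95% interval -0.10 to 0.29, edgeR adjusted p = 0.426) in KP4 and 0.91 ± 0.12 (adjusted p = 2.26e-07) in MiaPaca2, or 1.12 there without DMSO replicate 2.

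TBK1, on chromosome 12 at 64451880 to 64502108 (plus strand), encodes the kinase that phosphorylates OPTN, p62 and NDP52 at their cargo and also drives interferon induction through IRF3. Levels were 59.1, 51.0 and 56.0 CPM in KP4 DMSO and 56.6, 51.2 and 51.8 CPM in KP4 trametinib. In MiaPaca2 they were 43.8, 41.7 and 43.0 CPM with DMSO and 50.3, 58.2 and 52.3 CPM with trametinib. The 3 MiaPaca2 DMSO libraries were the lowest of the 12, and the other 3 groups overlapped one another. The log2 change was -0.06 (95% interval -0.19 to 0.07, edgeR adjusted p = 0.494) in KP4 and 0.32 ± 0.07 (adjusted p = 1.94e-04) in MiaPaca2.

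Beside these changes, the summed ductal markers given above fell with treatment in both lines. The sum follows its most abundant genes, and single markers moved both ways. In KP4 mean KRT18 went from 183 to 127 CPM and SOX9 from 126 to 27.2. Mean KRT8 there went from 51.9 to 64.0 CPM and MUC1 from 8.58 to 11.9. In MiaPaca2 mean KRT8 went from 872 to 364 CPM, KRT18 from 759 to 218 and MUC1 from 17.1 to 111. Other measures moved as well. The share of counts from mitochondrial genes was 2.25 to 3.32% in MiaPaca2 DMSO, highest in replicate 2, and 4.02 to 4.25% in MiaPaca2 trametinib, and 4.16 to 4.38% and 5.48 to 5.75% in KP4. The summed level of 6 fibroblast marker genes was 76.8 to 128 CPM in MiaPaca2 DMSO and 241 to 256 CPM in MiaPaca2 trametinib, and 8.20 to 9.52 and 14.2 to 15.2 CPM in KP4. LUM was at 0 counts in MiaPaca2 DMSO and COL1A2 in KP4 DMSO. Most of the MiaPaca2 fibroblast sum was COL1A2, with means of 101 CPM with DMSO and 210 CPM with trametinib. The 5 mesenchymal markers summed to 5887 to 6554 CPM in MiaPaca2 DMSO and 5077 to 5174 CPM in MiaPaca2 trametinib, and to 3819 to 3843 and 3313 to 3323 CPM in KP4, where SNAI2 was at 0 counts. Most of that sum was VIM, whose mean went from 6061 to 4956 CPM in MiaPaca2 and from 3629 to 3085 in KP4. Mean ZEB1 went from 52.6 to 46.1 and from 55.5 to 44.2 CPM, and mean CDH2 from 33.9 to 73.1 and from 131 to 173. In MiaPaca2 mean FN1 went from 15.5 to 33.2 CPM and SNAI2 from 0.60 to 10.0. The part of these measures in the receptor results was not tested.

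Whether the 2 lines responded unequally was tested as the KP4 log2 change minus the MiaPaca2 log2 change. At an edgeR adjusted p under 0.05 it was below 0 for 7 of the 10 genes and above 0 for 1. Over all genes tested, 19.7% were lower and 16.0% higher by the same test. The widest gaps were -1.41 ± 0.21 for BNIP3 (edgeR adjusted p = 5.45e-06) and -1.29 ± 0.08 for OPTN (adjusted p = 1.38e-12). SQSTM1 differed by -0.87 ± 0.18 (adjusted p = 0.00566), FUNDC1 by -0.81 ± 0.15 (1.34e-04) and TOLLIP by -0.64 ± 0.09 (5.45e-06). TBK1 at -0.38 ± 0.09 and CALCOCO2 at -0.35 ± 0.07 were smaller, and BNIP3L at 0.59 ± 0.17 was the gene on the other side (edgeR adjusted p = 0.00224, 1.70e-04 and 0.0169). The median over the 10 genes was -0.51, beside -0.05 over all genes tested. For NBR1 the difference was -0.03 (95% interval -0.16 to 0.11, adjusted p = 0.793). For TAX1BP1 it was -0.14 (-0.26 to -0.01, adjusted p = 0.0755), and without MiaPaca2 DMSO replicate 2 it was -0.18 (adjusted p = 0.00465), which passed.

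With DMSO alone, 8 receptor genes were called higher in KP4 than in MiaPaca2 and 1 lower, against 32.0% of all genes tested higher and 31.2% lower. BNIP3 was 3.60-fold higher in KP4 (1.85 ± 0.15 log2, edgeR adjusted p = 6.65e-11), SQSTM1 2.93-fold (1.55 ± 0.13, adjusted p = 6.31e-06) and FUNDC1 2.17-fold (1.12 ± 0.11, adjusted p = 3.24e-09). TOLLIP at 0.84 ± 0.07, OPTN at 0.81 ± 0.06 and TBK1 at 0.37 ± 0.07 log2 were also higher in KP4. NBR1 at 0.15 ± 0.05 (adjusted p = 0.00456) and TAX1BP1 at 0.11 ± 0.04 (adjusted p = 0.0256) were the narrowest. The NBR1 call is lost when only the 6 DMSO libraries are fitted (edgeR adjusted p = 0.0539). The TAX1BP1 call is lost under several settings, to 0.07 log2 at the lowest, without MiaPaca2 DMSO replicate 3 (adjusted p = 0.162). BNIP3L was 3.46-fold lower in KP4 (-1.79 ± 0.12, adjusted p = 1.98e-08). CALCOCO2 differed by -0.02 (95% interval -0.12 to 0.08, adjusted p = 0.712). The median over the 10 was 0.59, beside 0.02 over all genes. Without MiaPaca2 DMSO replicate 2 the gaps were 1.95 for BNIP3, 1.76 for SQSTM1, 1.33 for FUNDC1, 0.95 for TOLLIP, 0.90 for OPTN, 0.35 for TBK1, 0.16 for TAX1BP1, 0.14 for NBR1, -1.89 for BNIP3L and -0.02 for CALCOCO2, with the same 9 genes past the test.

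With trametinib, 5 receptor genes were called higher in KP4 and 3 lower, against 26.5% of all genes tested higher and 29.8% lower. The median over the 10 was 0.06 beside -0.01 over all genes. OPTN changed sides: from above MiaPaca2 with DMSO it went below it with trametinib, by -0.48 ± 0.05 log2 (edgeR adjusted p = 7.45e-09). CALCOCO2 was lower in KP4 by -0.37 ± 0.05 (adjusted p = 1.33e-07), and BNIP3L remained lower at -1.20 ± 0.12 (adjusted p = 1.94e-06). SQSTM1 was still higher in KP4, at 0.68 ± 0.13 (adjusted p = 0.00170), and BNIP3 at 0.44 ± 0.13 (adjusted p = 0.00547). FUNDC1 at 0.30 ± 0.10, TOLLIP at 0.20 ± 0.06 and NBR1 at 0.13 ± 0.05 were the other genes higher in KP4 (adjusted p = 0.0108, 0.00935 and 0.0195). The FUNDC1 and NBR1 calls are lost without MiaPaca2 trametinib replicate 1 (edgeR adjusted p = 0.0717 and 0.108), and 3 genes then remain higher in KP4. NBR1 is also lost without KP4 trametinib replicate 2 or 3 or MiaPaca2 trametinib replicate 3. With the trametinib libraries fitted alone, FUNDC1 and NBR1 both keep the call (edgeR adjusted p = 3.45e-04 and 6.51e-04). TBK1 differed by -0.01 (95% interval -0.14 to 0.13, adjusted p = 0.945) and TAX1BP1 by -0.03 (-0.11 to 0.06, adjusted p = 0.633). The change in each line gap from DMSO to trametinib is, by construction, the response difference already given.

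**Figure D3:**
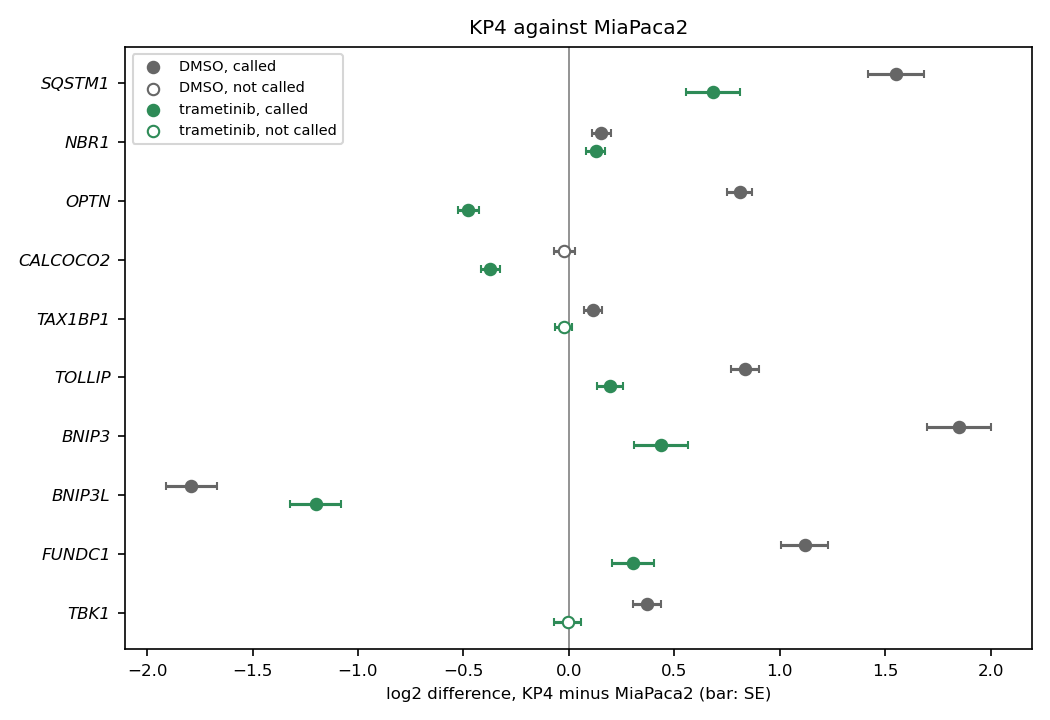
Log2 difference of each receptor gene, KP4 minus MiaPaca2, with DMSO (grey) and with trametinib (green), with bars for the SE; filled points passed the test at an adjusted p under 0.05. OPTN lies right of 0 with DMSO and left of it with trametinib, and BNIP3L is left of 0 under both.

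Divided by exon length, to allow levels of different genes to be compared, SQSTM1 stood far above the others in every group. It was at 313 CPM per kb of exon in KP4 with DMSO and 467 with trametinib, and at 107 and 291 in MiaPaca2, or 18.0, 13.5, 4.99 and 6.05 times the second gene of the same group. BNIP3 was last in every group, from 0.572 CPM per kb in MiaPaca2 DMSO to 2.07 in KP4 DMSO. OPTN climbed from sixth to second in KP4 (14.6 to 34.5 CPM per kb) and from eighth to second in MiaPaca2 (8.35 to 48.1). BNIP3L was second in MiaPaca2 DMSO at 21.4 CPM per kb and ninth in KP4 DMSO at 6.19.

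The middle of that order was crowded. In KP4 DMSO, NBR1 at 17.1 and TOLLIP at 16.9 CPM per kb overlapped in their libraries, and in MiaPaca2 DMSO the neighbours from TOLLIP (9.48) through CALCOCO2 (9.29), TBK1 (8.99) and OPTN (8.35) to FUNDC1 (7.17) all overlapped. TAX1BP1 and NBR1 also overlapped there. With trametinib the overlapping neighbours were FUNDC1 with NBR1 and CALCOCO2 with TBK1 in KP4, and CALCOCO2 with BNIP3L and BNIP3L with NBR1 in MiaPaca2. The exon lengths are unions over all annotated isoforms, so a gene with long rare exons reads low on this scale.

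**Figure D4:**
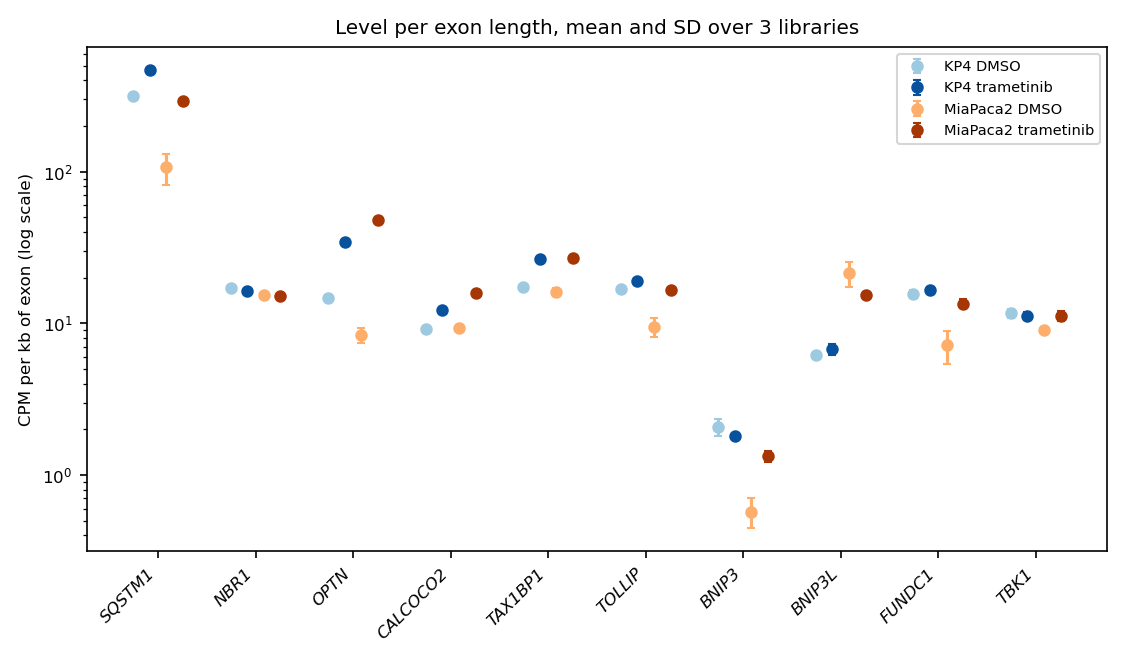
Mean level of each receptor gene in CPM per kb of exon, on a log axis, with bars for the SD of 3 libraries, in the 4 groups. SQSTM1 is highest and BNIP3 lowest in every group, and OPTN rises past its neighbours with trametinib in both lines.

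Genes that work around the receptors were read from lists of the pathway. The shares over all genes tested, 23.9% higher and 24.1% lower in KP4 and 34.4% and 29.7% in MiaPaca2, stand beside every list count, and a count near them is no result about the list. Among 16 tested genes of the ATG8 proteins and their conjugation enzymes, 3 rose and 3 fell in KP4 (median log2 change 0.06) and 9 rose and 3 fell in MiaPaca2 (0.25). The KP4 counts, 18.8% in each direction, lay under the shares over all genes. MAP1LC3A, an LC3 gene, rose most, from 9.61 to 21.1 CPM in KP4 and from 9.03 to 38.0 CPM in MiaPaca2. The largest falls were ATG7, which activates ATG8 proteins, in KP4 (-0.37 log2) and ATG4C, a protease that primes them, in MiaPaca2 (-0.56). ATG7 rose in MiaPaca2, by 0.20, and its response difference was -0.57 ± 0.09 (edgeR adjusted p = 2.90e-05).

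Of 19 genes of autophagosome initiation, 7 rose and 2 fell in KP4 (median 0.09) and 12 rose and 4 fell in MiaPaca2 (0.22). WIPI1, which reads PI3P on the forming membrane, rose most in both lines, by 0.87 and 1.72 log2. ATG101 of the ULK1 complex fell most in KP4 (-0.33), and PIK3R4 of the PI3-kinase complex in MiaPaca2 (-0.37). Of 8 fusion genes, 5 rose and 1 fell in KP4 (median 0.24) and 6 rose and 0 fell in MiaPaca2 (0.51). SNAP29, a SNARE, rose by 0.33 in KP4 and PLEKHM1, a tether to the lysosome, rose by 0.83 in MiaPaca2. The fall in KP4 was YKT6, a SNARE, at -0.10, and that call is lost under RLE or library-size scaling and by DESeq2. In MiaPaca2 the count of 0 fusion genes lowered was also 0 at an unadjusted p under 0.05, by DESeq2 and by limma.

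A second list held 19 receptors beyond the 10, for ferritin, endoplasmic reticulum, glycogen and mitochondria: 8 rose and 2 fell in KP4 (median 0.09) and 11 rose and 4 fell in MiaPaca2 (0.23). CALCOCO1, a paralog of NDP52 and receptor for the endoplasmic reticulum and Golgi, rose most in KP4, by 0.77. TRIM5, a retroviral restriction factor that also binds ATG8 proteins, rose most in MiaPaca2, from 26.0 to 91.2 CPM. PHB2, an inner mitochondrial membrane protein, fell most in both lines, by -0.42 and -0.55 log2. Of 11 partners and related kinases of TBK1, 5 rose and 3 fell in KP4 (median 0.12) and 6 rose and 3 fell in MiaPaca2 (0.23). IKBKE, the kinase most like TBK1, rose most in KP4 (0.91), STING1, which recruits TBK1 after DNA sensing, in MiaPaca2 (1.87), and the casein kinase subunit CSNK2A1 fell most in both (-0.34 and -0.91).

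Of 16 mitophagy regulators, 4 rose and 3 fell in KP4 (median -0.01) and 5 rose and 6 fell in MiaPaca2 (-0.06). These are 25% and 18.8%, and 31.2% and 37.5%, near the shares over all genes. PGAM5, a phosphatase that acts on FUNDC1, fell most in both, by -0.32 and -1.09 log2. Of 14 tested hypoxia-responsive genes, the class BNIP3 belongs to, 2 rose and 5 fell in KP4 (median -0.19) and 4 rose and 5 fell in MiaPaca2 (-0.21). The peptide hormone gene ADM rose most in both (1.82 and 2.18), and the largest falls were ANKRD37 in KP4 (-1.01) and the glucose transporter gene SLC2A1 in MiaPaca2 (-0.64).

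The KEAP1-NRF2 axis, which p62 touches, held 10 genes: 9 rose and 0 fell in KP4 (median 0.39), and 7 rose and 2 fell in MiaPaca2 (0.45). The 0 in KP4 was also 0 at an unadjusted p under 0.05, by DESeq2 and by limma. OSGIN1 rose most in KP4 (0.93) and the heme oxygenase gene HMOX1 most in MiaPaca2 (2.23), where GCLM, the glutathione synthesis subunit, fell from 134 to 61.8 CPM. In KP4 GCLM rose from 67.6 to 86.1 CPM, and the response difference was 1.47 ± 0.13 (edgeR adjusted p = 3.66e-07). Of 8 tested transcription factor genes of the TFEB, FOXO and HIF families, 4 rose and 2 fell in KP4 (median 0.33) and 5 rose and 1 fell in MiaPaca2 (0.60). FOXO1 rose most in both lines (1.77 and 1.21) and EPAS1, which encodes HIF-2α, fell most (-1.51 and -1.06).

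**Figure D5:**
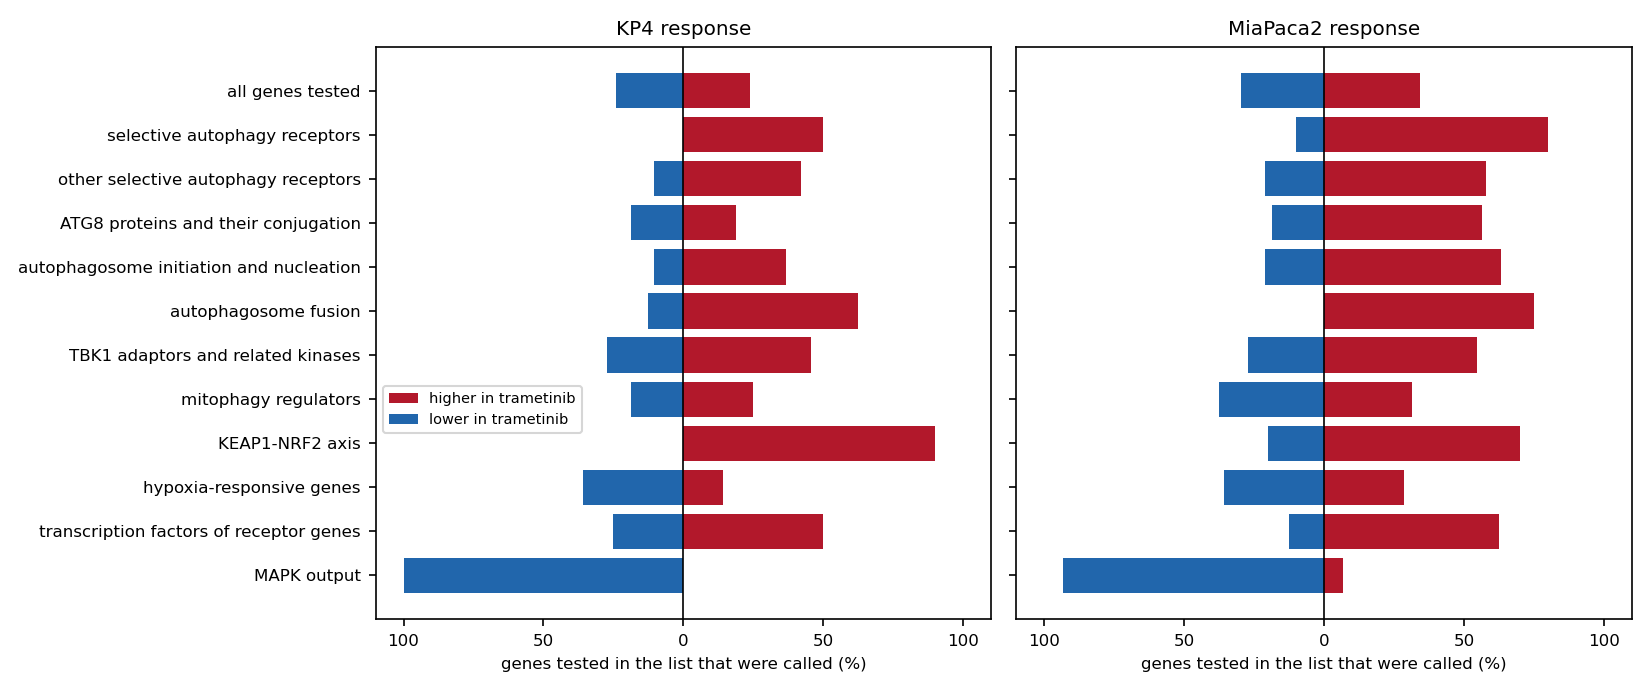
Percentage of the tested genes of each list that were higher (red, to the right of 0) or lower (blue, to the left of 0) with trametinib at an adjusted p under 0.05, in KP4 and MiaPaca2, with all genes tested in the top bars. The receptor bar holds 5 genes higher and 0 lower in KP4 and 8 higher and 1 lower in MiaPaca2, and the RAS-MAPK output list lies almost wholly to the left.

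Among 10890 genes with a mean of at least 5 CPM, some traced the profile of a receptor gene over the 12 libraries closely, by Pearson's r of log2 CPM; the libraries share line, treatment and depth, so r is a description only. For SQSTM1 these were HMOX1 (0.999), P3H2 (0.998) and NLRP1 (0.998). HMOX1 went from 118 to 218 CPM in KP4 and from 23.8 to 112 CPM in MiaPaca2. For OPTN they were TNIP1 (0.998), TDRD7 (0.996) and GSTK1 (0.996), and TDRD7 went from 27.6 to 94.9 and from 14.3 to 168 CPM. For CALCOCO2 they were HLA-E, GBP1 and DTX3L (0.994 each); GBP1, an interferon-inducible GTPase, went from 1.61 to 13.1 CPM in KP4 and from 1.59 to 74.2 CPM in MiaPaca2, and HLA-E reads are uncertain because HLA genes are alike.

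For TAX1BP1 the closest profiles were SHC2, COL5A3 and PPIC (0.994, 0.994 and 0.993), and for TOLLIP they were VPS18, SCRN2 and EXOC7 (0.997, 0.994 and 0.994). BNIP3 was traced by KLF7, PPFIBP1 and CDHR17P (0.988, 0.983 and 0.982) and FUNDC1 by MMP14, KDM6A and TMEM200B (0.989, 0.987 and 0.987). BNIP3L was traced by PDE4D, ADAM10 and RAB2A (0.994, 0.994 and 0.991). ADAM10, for example, was at 65.3 and 67.4 CPM in KP4 and at 220.2 and 164 CPM in MiaPaca2, with DMSO and trametinib in turn. NBR1 and TBK1 had looser nearest genes: PRDM10, CDC27 and SHPRH (0.948, 0.947 and 0.933) for NBR1, and AK3, TP73-AS1 and SQOR (0.917, 0.916 and 0.915) for TBK1.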

How the data were processed

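Messenger RNA was sequenced in 12 libraries, 3 in each of 4 groups assigned from the sample labels. The authors deposited raw whole-number read counts per gene for 58735 Ensembl identifiers, with 0 unnamed rows. STAR, DESeq2 and the GRCh38 (hg38) build are named in the submitters' processing notes; the treatment of multi-mapping reads, like versions, counter, annotation and strand use, is not given in the sources used here, so overlapping antisense genes and near-identical copies are uncertain. GENCODE 29 gave names, positions and union exon lengths.

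Genes were kept by edgeR's expression filter (16133), scaled by TMM and tested with edgeR 4.0.16 (R 4.3.3), whose quasi-likelihood fit with robust shrinkage used 4 group means over all 12 libraries, so the groups shared 1 estimate of the spread. Calls are at an adjusted p under 0.05 over all genes, and SE and 95% intervals come from the same fit. The dispersion common to all genes was 0.00299 (coefficient of variation 5.47%), at 20293688 to 28018129 counts per library. On counts simulated for the KP4 comparison over 15713 genes, 77 of 100 genes changed 1.5-fold and 93 of 100 changed 2-fold were recovered, with 16 false calls. The changed genes had a mean of at least 1 CPM, and all other genes had the same mean in the 4 groups. Many more genes changed in the real comparison, so these figures do not give its recovery or its false calls. Alternatives were other scalings, filters and tools (DESeq2 1.42.0, limma 3.58.1), a replicate block and each library left out.

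The 10 genes and the lists were chosen with earlier results of these data known. The single cell type markers were picked after values were seen. Named genes are the 10, the largest riser and faller past the test of each list and line with a mean of at least 1 CPM, and the 3 genes closest to each of the 10 in profile; ATG7 and GCLM were also given in the second line, and promoter windows and the library that stands apart were chosen after values were seen. A gene that this rule would name is not reported here.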

Additional observations from a re-analysis of the deposited data

Results flagged for a closer look

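The trametinib response of 8 receptor genes differed between the 2 lines by the test of the difference itself (KP4 log2 change minus MiaPaca2 log2 change, edgeR adjusted p under 0.05). The values were -1.41 for BNIP3, -1.29 for OPTN, -0.87 for SQSTM1, -0.81 for FUNDC1, -0.64 for TOLLIP, -0.38 for TBK1, -0.35 for CALCOCO2 and 0.59 for BNIP3L. Without MiaPaca2 DMSO replicate 2, the library that stood apart, they were -1.52, -1.37, -1.07, -1.02, -0.75, -0.35, -0.36 and 0.69 in the same order, all past the test. No test for a stray library was applied within the groups of 3.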

How the results depend on the processing

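Of 850 receptor values recomputed under the alternatives, 815 kept their direction and their side of the threshold, 16 lost the call, 1 gained it and 18 changed sign. None of the sign changes touched a called value. In the NBR1 response difference the value was 0.0200 under RLE scaling, 0.0060 under the strict filter of 5 CPM in 3 libraries and 0.0195 by DESeq2. CALCOCO2 between lines with DMSO was 0.0107 by library size only. TBK1 between lines with trametinib was 0.0100 under RLE scaling, 0.0175 by library size only, 0.0055 with no low-count filter, 0.0113 under the strict filter and 0.0074 by DESeq2. With 1 library left out, NBR1 ran from -0.0629 to 0.0103 in the MiaPaca2 response and from -0.0700 to 0.0513 in the response difference, CALCOCO2 from -0.0539 to 0.0096 with DMSO, and, with trametinib, TAX1BP1 from -0.0324 to 0.0293 and TBK1 from -0.0491 to 0.0545. Left-out libraries moved the number of receptor genes higher with trametinib from 4 to 5 in KP4 and gave 8 in MiaPaca2, and those higher in KP4 from 7 to 8 with DMSO and from 3 to 5 with trametinib. The lower counts were 0, 1, 1 and 3 throughout, and the response difference gave 1 higher and 7 to 8 lower. TAX1BP1 between lines with DMSO also lost its call under RLE scaling (edgeR adjusted p = 0.0981), by DESeq2 (0.106), with the DMSO libraries alone (0.190) and without KP4 DMSO replicate 1 or 3. With the replicate number as a block, 8 receptor genes rose in MiaPaca2 and 5 in KP4, and 0 member calls changed. No pattern shared by libraries of the same number was seen: 18 same-number pairs correlated at -0.02 to 0.03 and 36 others at -0.03 to 0.03. Such correlations cannot tell if same-number libraries were prepared together. Counts over all genes moved by less than 1.5 times under every alternative run. Among 1700 recomputed list counts 75 lay outside that range. In KP4 the ATG8 list gave 6 genes higher under the strict filter and 5 with the KP4 libraries alone, against 3, the fusion list 3 higher without DMSO replicate 3 or trametinib replicate 3, against 5, and 0 lower under RLE or library-size scaling, the strict filter, DESeq2 or without DMSO replicate 1 or 2 or trametinib replicate 1 or 3, against 1. The KP4 hypoxia list gave 10 lower with the KP4 libraries alone and 3 without DMSO replicate 1 or 3, against 5, and 1 higher without DMSO replicate 2 or 3 or trametinib replicate 3, against 2. The TBK1 list gave 1 lower without KP4 DMSO replicate 2, against 3, the other receptors 1 lower without KP4 trametinib replicate 1 and the transcription factors 1 lower under the strict filter, each against 2. In MiaPaca2 the hypoxia list gave 3 lower without DMSO replicate 1 and the mitophagy list 3 higher with the MiaPaca2 libraries alone, each against 5. An older edgeR quasi-likelihood fit, chosen after seeing the data, changed no receptor call. BNIP3, the least abundant at 2.26 to 12.2 CPM, had the widest SE of the 10 in the MiaPaca2 response, 0.171.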
